A study of Mus musculus with 10 samples.

Results

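The axon guidance ligands and receptors were taken by gene symbol: plexins, semaphorins, neuropilins, Robo and Slit genes, netrins and netrin-G genes, Dcc, Neo1, Unc5 genes, ephrins and Eph receptors. The rule used no measured value and found 72 of the 24421 genes counted. They comprise 9 plexins, 2 neuropilins, 20 semaphorins, 4 Robo receptors, 3 Slit ligands, 2 receptors of the Dcc and neogenin type, 4 Unc5 receptors, 4 netrins, 2 netrin-G proteins, 14 Eph receptors and 8 ephrins.

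These molecules steer growing axons. Semaphorins are read by plexins, often together with a neuropilin, Slits are read by Robo receptors, and netrins by Dcc, which attracts, and by Unc5 receptors, which repel. Ephrins and Eph receptors are both bound to membranes and signal at contacts between cells. The vagal sensory neurons compared here lie in ganglia of different embryonic origin, the jugular ganglion from the neural crest and the nodose ganglion from a placode of the head ectoderm, and many guidance genes remain active in adult sensory neurons.

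The study sequenced RNA from 10 pools of single mouse vagal neurons, in 5 groups of 2 pools, to compare capsaicin-sensitive C-fiber neurons of the 2 ganglia. In the Trpv1 selection, neurons came from 2 Trpv1-tdTomato mice, in which Cre driven by Trpv1 leaves the red protein tdTomato in every cell that expresses or once expressed this capsaicin receptor. There were 2 pools of 30 red (Trpv1+) nodose neurons, 2 of 30 red jugular neurons and 2 of 15 nodose neurons without the reporter (Trpv1-). In the capsaicin selection, C57BL/6 neurons were first tested in a calcium assay. The nodose pools, of 14 and 15 cells, had responded to capsaicin and to the P2X agonist α,β-methylene ATP, and the jugular pools, of 15 and 16 cells, to capsaicin but not to that agonist. The strain, the sequencing core, the depth and the prior calcium assay differ together with the selection, so these cannot be told apart. Nothing ties a pool to a mouse, so the spread between pools may be partly technical.

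Totals were 148452506 to 167704327 counts per pool in the Trpv1 selection and 17666710 to 30810863 in the capsaicin selection. Levels are given as CPM, the count divided by the pool's own size factor and multiplied by the same constant in every pool. The size factors were estimated over all 10 pools together, and CPM values do not add up to the same total in each pool. A count of 3, the floor used here, equals 0.0144 to 0.0191 CPM in pools of the Trpv1 selection and 0.146 to 0.217 CPM in those of the capsaicin selection. Trpv1 itself was at 251 and 146 CPM in the Trpv1+ nodose pools, 22.1 and 32.0 CPM in the Trpv1+ jugular pools, 87.4 to 307 CPM in the capsaicin pools and at most 0.0431 CPM in the Trpv1- pools. Of the nodose markers, P2rx2, a subunit of the ATP-gated P2X channels, was at 76.1 to 679 CPM over the nodose pools and at most 0.292 CPM in a jugular pool, and Hoxb5 was at 289 to 517 CPM and at most 0.243 CPM. The 5 jugular markers that were counted, led by Tac1, summed to at least 477 CPM in each jugular pool and to at most 99.6 CPM in each nodose pool. Satellite glia and Schwann cell markers summed to 3685 to 4998 CPM among the Trpv1-selected pools and 1979 to 2594 CPM among the capsaicin-selected ones, with Gfap at 0 in every pool. Of 7 endothelial markers, Cldn5 and Cdh5 were at 0 in every pool, and the summed level was 38.6 to 79.1 CPM among Trpv1-selected pools, most of it Egfl7, versus 0 to 14.7 CPM after capsaicin selection. Of 8 macrophage markers, 6 were at 0 in every pool, and the sum was 1.34 to 18.0 CPM among Trpv1-selected pools versus 0.155 to 94.9 CPM after capsaicin selection, where Cd68 gave 93.8 CPM in 1 nodose pool.

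Few of the guidance genes were detected at a steady level. Of the 72 genes, 17 (23.6%) reached 10 CPM in both pools of at least 1 group, against 32.1% of all genes counted, and none did so in all 5 groups, against 7.62% of all genes. By group, 6 genes reached that level in both Trpv1+ nodose pools, 7 in the Trpv1+ jugular pools, 11 in the Trpv1- nodose pools, 5 in the capsaicin nodose pools and 8 in the capsaicin jugular pools. Another 15 genes (20.8%, against 36.9% of all genes) did not exceed 3 counts in any pool. Of those, 12 had no count in any pool: Efna4, Epha10, Epha2, Epha3, Epha8, Ephb4, Ntn1, Ntn4, Ntn5, Robo3, Robo4 and Sema3g. The netrins were the family with the least signal, since besides those at 0 there was only Ntn3, with 1 count in a Trpv1+ nodose pool and 454 counts in a Trpv1- nodose pool. None of the 14 Eph receptors reached 10 CPM in both pools of a group, although Epha5 stood at 36.1 CPM in 1 Trpv1+ nodose pool, Epha7 at 20.7 CPM in 1 Trpv1- pool, Ephb1 at 29.1 CPM in 1 capsaicin jugular pool and Ephb6 at 27.8 CPM in the other. Only Efna5, Plxnc1, Sema4b, Sema4d and Sema6d had more than 3 counts in each of the 10 pools.

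Pools of one group often disagreed. In the capsaicin nodose group, 9 of the 14 guidance genes that reached 10 CPM in 1 pool were under 1 CPM in the other (64.3%, against 44.4% over all genes). The same held for 5 of 15 genes in the capsaicin jugular group (33.3%, against 28.1%), 5 of 17 in the Trpv1+ nodose group (29.4%, against 23.0%), 3 of 14 in the Trpv1+ jugular group (21.4%, against 18.3%) and 4 of 24 in the Trpv1- nodose group (16.7%, against 15.4%). Neo1, the neogenin receptor for netrins and for repulsive guidance molecules, is an example, with 109 CPM in one capsaicin nodose pool and 0.0725 CPM in the other, and 0.00533 and 20.4 CPM in the Trpv1+ jugular pools.

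**Figure D1:**
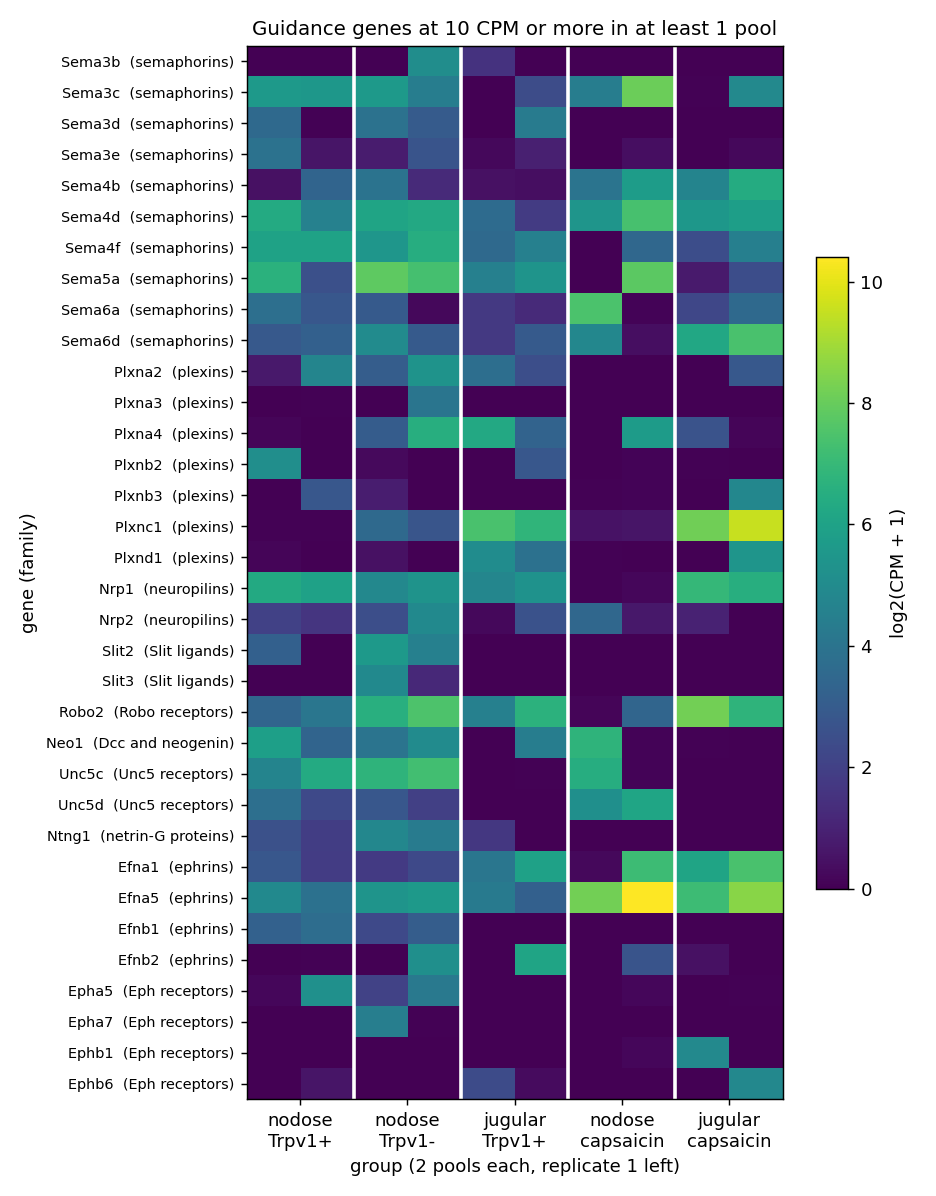
Heat map of log2(CPM + 1) for the 34 guidance genes that reached 10 CPM in at least 1 of the 10 pools (rows, with their family), with the 2 pools of each group side by side. Plxnc1 is bright in the 4 jugular pools and dark in the 4 pools of Trpv1+ and capsaicin-selected nodose neurons, and many other genes are bright in 1 pool of a group and dark in the other.

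To compare genes with each other, CPM was divided by the exon length of the gene in kilobases. Over the 10 pools the ephrins Efna5 (58.0 CPM per kb) and Efna1 (25.8 CPM per kb), membrane-anchored ligands of EphA receptors, and the plexin Plxnc1 (15.96 CPM per kb) had the highest mean levels. Sema4d, Sema3c, Sema4f, Nrp1, Robo2, Sema5a and Sema4b followed with 7.44 down to 3.61 CPM per kb. The order changed with the group. Trpv1+ nodose neurons were led by Sema4f (11.9 CPM per kb), a transmembrane semaphorin, and Nrp1 (7.17 CPM per kb), the neuropilin that binds class 3 semaphorins, whereas Trpv1+ jugular neurons were led by Efna1 (21.1 CPM per kb) and Plxnc1 (16.9 CPM per kb). By group mean, Efna5 and Efna1 led the capsaicin nodose pools (206 and 38.8 CPM per kb) and, with Plxnc1 (61.9 CPM per kb), the capsaicin jugular pools (64.7 and 64.9 CPM per kb), and Sema4f (12.5 CPM per kb) and Efna5 (11.2 CPM per kb) led the Trpv1- nodose pools. The capsaicin nodose mean of Efna1 rests on 1 pool, since the pools held 3 and 1956 counts (0.155 and 142 CPM).

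The guidance gene that passed the test between the ganglia was Plxnc1, the receptor of the membrane-anchored semaphorin Sema7a. In the Trpv1 selection it was at 0.0446 and 0.0364 CPM in Trpv1+ nodose pools (7 and 6 counts) versus 169 and 112 CPM in the jugular pools (31728 and 22432 counts). Among capsaicin-selected neurons it was at 0.413 and 0.507 CPM in the nodose pools (8 and 7 counts) versus 282 and 752 CPM in the jugular pools (5797 and 14561 counts). All 4 jugular pools thus lay far above these 4 nodose pools. The group means were 0.0405 ± 0.00579 and 141 ± 40.3 CPM among Trpv1+ neurons, and 0.460 ± 0.0666 and 517 ± 332 CPM among capsaicin-selected ones (SD, n = 2 pools).

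Plxnc1 was higher in jugular neurons, with a log2 fold change of nodose over jugular of -11.74 (SE 1.19, adjusted p = 0.0579) for the Trpv1 selection and of -11.08 (SE 0.93, adjusted p = 0.000314) in the 8 pools of both selections, by edgeR's quasi-likelihood test with Benjamini-Hochberg adjustment over all genes tested. In the capsaicin pools alone the value was -10.50 (SE 1.19, adjusted p = 0.162), which did not pass the threshold of 0.1 but did pass with DESeq2 (adjusted p = 0.000212). As a ratio of summed counts, here and below after division by the summed size factors of each group, jugular over nodose was 3460 (exact 95% counting interval 2020 to 6490) after Trpv1 selection and 1130 (683 to 2010) after capsaicin selection. Such intervals cover counting error only, since reads are copies from amplified cDNA. The difference itself was not shown to differ between the selections (log2 -1.17, SE 1.205, adjusted p = 0.870 for the interaction). In bulk pools, fewer cells with a transcript and less of it per cell cannot be told apart. The call in the Trpv1 selection rested on all 4 pools: it was lost when any 1 of them was left out (log2 -11.44 to -12.02, adjusted p 0.395 to 0.704), in fits that then called no gene at all, and when the counts were thinned to the lowest depth of the capsaicin selection (log2 -12.04, adjusted p = 0.114).

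Trpv1- nodose neurons took an intermediate place, with Plxnc1 at 10.6 and 5.67 CPM (2224 and 1098 counts). Both values lay above the Trpv1+ nodose pools and below the Trpv1+ jugular pools. The ratio of summed counts, Trpv1- over Trpv1+ nodose, was 204 (119 to 384), and the log2 fold change of Trpv1+ over Trpv1- of -7.61 (SE 2.54) had an adjusted p of 0.377 with edgeR and of 1.14e-05 with DESeq2, but neither group reached 10 CPM in both pools, which a call required. Sema7a, the ligand, had 58 counts in 1 Trpv1+ nodose pool, 799 counts in 1 Trpv1- pool and no count in the other 8 pools.

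The Plxnc1 gene lies on the minus strand of chromosome 10 (chr10:94790866-94944835 in mm10, GENCODE vM21). Since it was the gene called between the ganglia, the sequence that precedes its transcription start is shown, from 250 to 171 bases before the start that RefSeq lists (GRCm38.p6, chr10:94945016-94945095, minus strand), with capitals marking GGGCGG, the core of a GC box.
Plxnc1 upstream: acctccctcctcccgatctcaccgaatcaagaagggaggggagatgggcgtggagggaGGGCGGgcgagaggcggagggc
GC made up 68.8% of these bases, against a median of 50.0% over the 32851 RefSeq windows of the same position and length. GGGCGG occurs in 8.27% of those windows on either strand. The homeodomain core TAAT (in 29.9% of windows) and the E-box CANNTG (in 30.1%) have no match in this stretch on either strand. These are letter matches only, and no binding was measured.

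**Figure D2:**
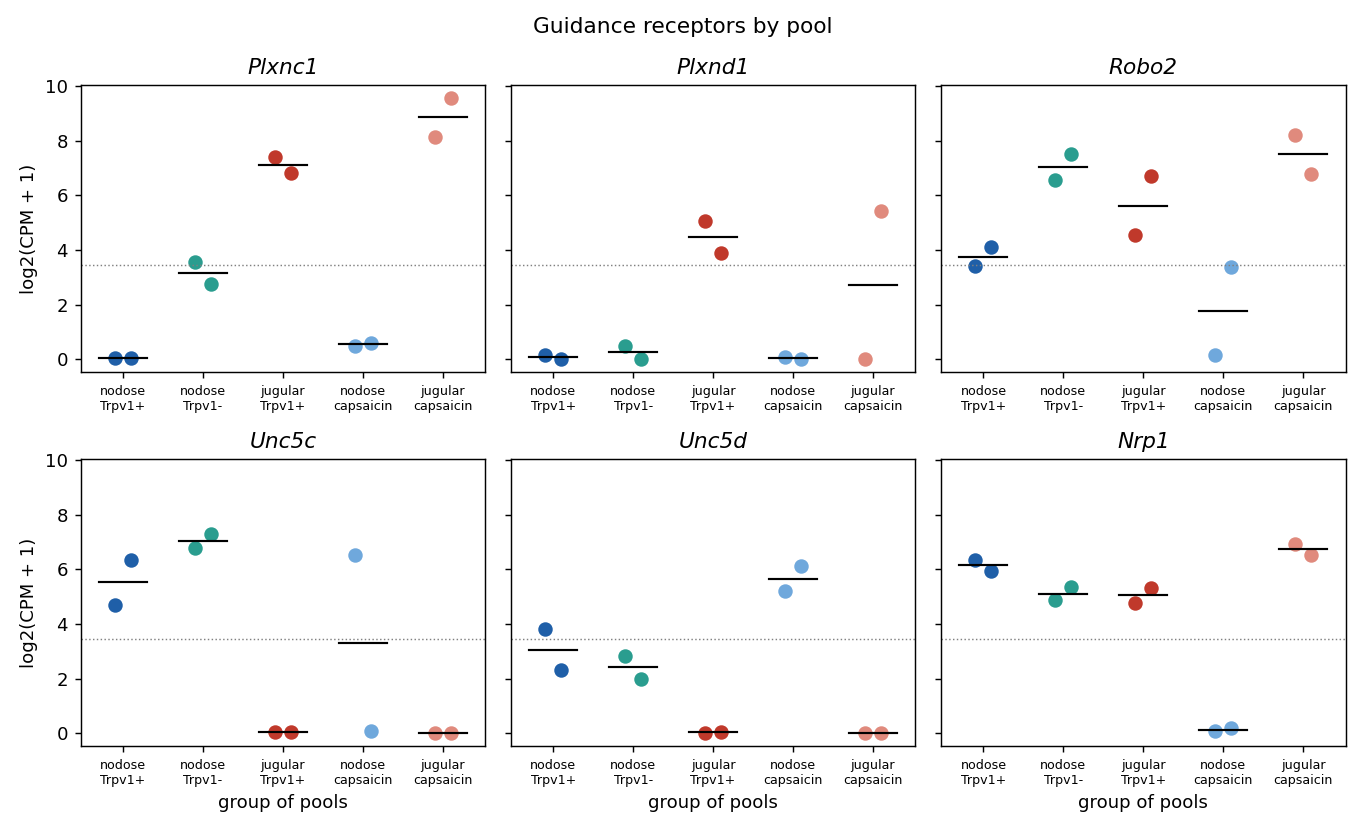
Each panel shows log2(CPM + 1) of 1 guidance receptor in the 2 pools of each group (points), with the group mean (bar) and 10 CPM (dotted line). Plxnc1 and Robo2 lie higher in jugular pools than in the Trpv1+ and capsaicin nodose pools, while Robo2 in the Trpv1- nodose pools is not low, Unc5d lies lower in jugular than in nodose pools, and Nrp1 is near 0 only in the capsaicin nodose pools.

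In the Trpv1 selection, Plxnc1 was the 1 gene called among 33 guidance genes tested by edgeR, with a background of 0.318% of all 10990 genes tested, or 0.136% on the jugular side. For a call, the adjusted p could not exceed 0.1, the fold change had to be at least 2, and both pools of a group had to reach 10 CPM. The median log2 fold change of nodose over jugular was 0.75 over the 33 guidance genes and 0.03 over all genes. DESeq2, which called 3.81% of all genes, called 3 guidance genes, Plxnc1 and Plxnd1 on the jugular side (background 2.28%) and Unc5c on the nodose side (background 1.53%). Of 11 guidance genes at 10 CPM in both pools of a group, 5 had both nodose pools above both jugular pools (background 23.9%) and 4 the reverse (background 24.8%), and with 2 pools against 2 no exact permutation test can go below p = 0.33. Sema3c, Sema4d and Unc5c, higher in nodose, and Efna1, Plxnc1, Plxnd1 and Robo2, higher in jugular pools, met the 10 CPM level only in their higher group. The gene Rn45s, which collects ribosomal RNA reads, took 8.537% to 10.34% of all counts of the Trpv1+ nodose pools and 2.652% to 3.384% elsewhere in this selection, and with Rn45s left out Plxnc1 was still the 1 guidance gene called (adjusted p = 0.0636).

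On the jugular side of the Trpv1 selection stood 2 more receptors and a ligand. Plxnd1, a plexin that binds Sema3e, was at 0.102 and 0.00607 CPM in the nodose pools versus 32.4 and 13.9 CPM in the jugular pools. Its log2 fold change was -8.74 (SE 2.94), with an adjusted p of 0.342 by edgeR and of 8.68e-05 by DESeq2. In the capsaicin jugular pools Plxnd1 was split, with 0 CPM in one and 42.4 CPM in the other. Efna1 was at 6.04 and 2.64 CPM in the nodose pools versus 16.1 and 61.0 CPM in the jugular pools, which is a log2 fold change of -3.17 (SE 1.80) with an adjusted p of 0.653 by edgeR. Its capsaicin pools overlapped, at 0.155 and 142 CPM for nodose versus 66.4 and 171.2 CPM for jugular neurons. Plxna4, a plexin that signals for class 3 semaphorins with neuropilins, was not eligible, since its jugular pools read 77.0 and 8.94 CPM, against 0.0893 and 0.0243 CPM in the Trpv1+ nodose pools. It was not low in all nodose neurons, since the Trpv1- pools held 7.16 and 91.7 CPM. Its capsaicin pools overlapped, at 0 and 52.0 CPM for nodose versus 5.30 and 0.103 CPM for jugular neurons.

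Robo2, a receptor of Slit proteins on chromosome 16 (chr16:73891839-74411825, minus strand), had both jugular pools above both Trpv1+ nodose pools, and both capsaicin jugular pools above both capsaicin nodose pools. In the Trpv1 selection the Trpv1+ nodose pools were at 9.63 and 16.02 CPM and the jugular pools at 22.2 and 102 CPM. After capsaicin selection the nodose pools were at 0.103 and 9.42 CPM and the jugular pools at 294 and 110 CPM. The gap was narrow in the Trpv1 selection, where the nearest pools read 16.02 and 22.2 CPM. Across both selections the log2 fold change of nodose over jugular was -4.02 (SE 1.66), with an adjusted p of 0.391 by edgeR and of 0.0313 by DESeq2. Robo2 was not low in all nodose neurons, since the Trpv1- pools held 93.4 and 183 CPM. No Slit gene reached 10 CPM in a Trpv1+ or capsaicin pool.

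Of the 4 Unc5 receptors, which mediate repulsion by netrins, Unc5c and Unc5d read higher in nodose pools, and neither passed edgeR's test. Unc5c (chr3:141465216-141834924, plus strand) was at 24.7 and 80.7 CPM in the Trpv1+ nodose pools versus 0.0267 and 0.0450 CPM in the Trpv1+ jugular pools. In the Trpv1- nodose pools it was at 108 and 154 CPM, and in the capsaicin selection at 89.9 and 0.0725 CPM in nodose pools versus 0 in both jugular pools. The second capsaicin nodose pool held only 1 count, under the floor of 3, against 0 in the jugular pools, so the capsaicin selection gives no replicated separation. The log2 fold change was 10.49 (SE 2.23) in the Trpv1 selection, where the ratio of summed counts was 1480 (880 to 2700), with an adjusted p of 0.321 by edgeR and of 1.44e-08 by DESeq2. Over both selections it was 11.57 (SE 2.92) with an adjusted p of 0.201 by edgeR and of 3.81e-08 by DESeq2. Without the second capsaicin nodose pool, edgeR's adjusted p over both selections was 0.0764, and without any other single pool it was 0.313 to 0.507.

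Unc5d (chr8:28646717-29219636, minus strand), which also binds FLRT proteins, was at 13.0 and 3.94 CPM in the Trpv1+ nodose pools versus 0.0160 and 0.0250 CPM in the Trpv1+ jugular pools. After capsaicin selection it was at 35.9 and 68.0 CPM in nodose pools versus 0 in jugular pools, and in the Trpv1- nodose pools at 6.16 and 2.96 CPM. All 6 nodose pools were thus above all 4 jugular pools. The ratio of summed counts was 404 (205 to 938) among Trpv1-selected pools, and among capsaicin-selected pools Unc5d was at least 346-fold higher in nodose pools, taking 3 counts per jugular library as the floor. The log2 fold change over both selections, 10.56 (SE 2.93), had an adjusted p of 0.272 by edgeR and of 2.20e-13 by DESeq2. The other Unc5 genes were near the floor, with at most 3 counts of Unc5a and at most 21 counts of Unc5b in a pool. Dcc, the attractive netrin receptor, had 46 to 215 counts per pool after Trpv1 selection and at most 7 after capsaicin selection.

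Semaphorins that lay higher in Trpv1+ nodose than in Trpv1+ jugular neurons were Sema3c, Sema4d and Sema4f. Sema3c, a secreted ligand of neuropilin and plexin complexes, was at 47.8 and 44.7 CPM against 0.0213 and 4.40 CPM. Sema4d, a transmembrane ligand of B-type plexins, was at 81.9 and 23.0 CPM against 11.4 and 2.52 CPM. Sema4f was at 63.6 and 62.8 CPM against 10.8 and 22.3 CPM. In each case both nodose pools were above both jugular pools, but the log2 fold changes of 4.37 (SE 2.62), 2.91 (SE 1.66) and 1.92 (SE 1.18) did not pass edgeR's test (adjusted p 0.657 to 0.704). None of these genes was separated in the capsaicin selection, where Sema3c read 20.4 and 269 CPM in nodose pools versus 0.0486 and 29.1 CPM in jugular pools, Sema4d 41.8 and 164 against 44.9 and 56.0 CPM, and Sema4f 0 and 10.2 against 4.57 and 21.4 CPM. The ephrin Efnb1, a transmembrane ligand of EphB receptors, was on the same side at 8.40 and 12.1 CPM against 0.00533 and 0.02 CPM, a ratio of summed counts of 799 (342 to 2460), and had no count in any capsaicin pool. It was named after its values were seen, and only 1 of its pools reached 10 CPM.

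In the capsaicin selection edgeR called none of the 15 guidance genes tested, with a background of 0% of 8181 genes. At an unadjusted p under 0.05 there were 4 guidance genes (Nrp1, Plxnc1, Robo2 and Unc5d) among 1150 genes in all, and DESeq2, which called 7.44% of all genes, called the same 4, Unc5d on the nodose side (background 1.01%) and the others on the jugular side (background 6.43%). The median log2 fold change was 0.57 over the 15 guidance genes and -0.02 over all genes. Of 10 guidance genes at 10 CPM in both pools of a group, Unc5d alone had both nodose pools above the jugular pools (background 25.7%), and Nrp1, Plxnc1, Robo2 and Sema6d had both jugular pools above (background 24.4%). Each of these genes met the 10 CPM level only in the group where it was higher. Sema6d, a transmembrane ligand of class A plexins, was at 27.6 and 0.290 CPM in nodose pools versus 74.3 and 173 CPM in jugular pools, which is a log2 fold change of -3.36 (SE 2.35, adjusted p = 0.793 by edgeR). In the Trpv1 selection it overlapped, at 6.48 and 8.22 CPM against 2.35 and 6.67 CPM.

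Across both selections, 14 guidance genes reached 10 CPM in both pools of a group. Of these, Unc5d and, by 1 count against 0 in the capsaicin selection, Unc5c had both Trpv1+ and both capsaicin nodose pools above the jugular pools of the same selection (background 6.36% of 7267 genes) and Plxnc1 and Robo2 the reverse (background 7.1%). Among the Trpv1+ and capsaicin groups, each of them met the 10 CPM level only in the ganglion where it was higher. Over all genes the split of cases separated the same way in both selections was 47.2% nodose to 52.8% jugular, and 27.6% to 72.4% when CPM was taken per plain total count, with the same numbers of guidance genes on each side. In the fit of the 8 pools edgeR called 1 of 35 guidance genes, Plxnc1, with a background of 0.577% (0.309% on the jugular side), and DESeq2, with a background of 8.84%, called 6: Nrp1, Plxnc1, Plxnd1 and Robo2 on the jugular side (background 6.06%) and Unc5c and Unc5d on the nodose side (background 2.77%).

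**Figure D3:**
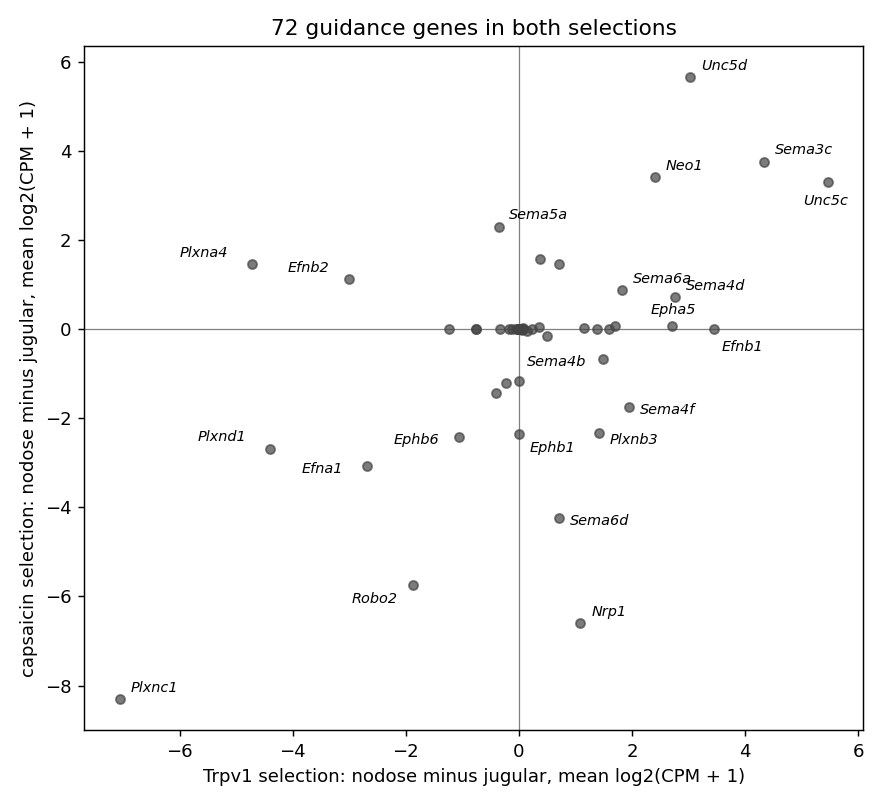
Each point is 1 of the 72 guidance genes, at its nodose minus jugular difference of mean log2(CPM + 1) in the Trpv1 selection (horizontal) and in the capsaicin selection (vertical). Plxnc1 lies at -7.06 and -8.30, Unc5d at 3.03 and 5.66, and Nrp1 at 1.09 and -6.60, on opposite sides of 0.

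Nrp1 (chr8:128358604-128503363, plus strand), a co-receptor for class 3 semaphorins and for vascular endothelial growth factor, lay in opposite directions in the selections. Among Trpv1+ neurons it was at 79.5 and 60.8 CPM in nodose pools versus 26.5 and 38.9 CPM in jugular pools. Among capsaicin-selected neurons it was at 0.0516 and 0.145 CPM in nodose pools (1 and 2 counts) versus 121 and 91.9 CPM in jugular pools. The Trpv1+ nodose pools did not overlap the Trpv1+ jugular pools, nor did the capsaicin pools overlap, and the capsaicin nodose pools stood apart from the other 8, which read 26.5 to 121 CPM. The log2 fold change of nodose over jugular was 1.09 (SE 0.95, adjusted p = 0.826) for Trpv1-selected and -10.39 (SE 2.35, adjusted p = 0.352) for capsaicin-selected neurons by edgeR, and jugular over nodose in the latter was 1180 (403 to 5720) by summed counts. The test of the interaction gave log2 11.64 (SE 2.51), with an adjusted p of 0.408 by edgeR and of 9.10e-11 by DESeq2.

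EdgeR called no guidance gene of 35 for the interaction, with a background of 0% of 11959 genes, and 2 had an unadjusted p under 0.05, against 1233 genes in all. DESeq2 called Nrp1, with a background of 9.01%, and 6.1% of all genes lay in opposite directions without overlap in the selections. In the capsaicin selection, fibroblast markers summed to 0 to 47.6 CPM in the nodose pools and 51.5 to 296 CPM in the jugular pools. These sums were Dcn, except for Col1a2 at 30.5 CPM in the second jugular pool. Col1a1, Col3a1, Lum and Pdgfra were at 0 in every capsaicin pool. Sympathetic neuron markers summed to 1231 to 1675 CPM in the nodose pools (827 and 850 CPM of it Th, with Hand2 and Dbh at 0) and 47.0 to 54.8 CPM in the jugular pools. The part of either set of markers in the Nrp1 values was not tested. The companion receptor Nrp2 read at most 29.6 CPM and reached 10 CPM in both pools of no group.

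The comparison of Trpv1+ with Trpv1- nodose neurons asked what is particular to the capsaicin-sensitive class within 1 ganglion. EdgeR called none of 37 guidance genes, with a background of 0.0527% of 11386 genes. At an unadjusted p under 0.05 there were 4, against 1264 genes in all, and DESeq2, with a background of 2.63%, also called 0 while giving 14 of 56 an unadjusted p under 0.05, against 3060 of 15300 genes in all. DESeq2's adjusted p was under 0.1 for Plxna4 (8.72e-06), Plxnc1 (1.14e-05), Slit3 (0.000265) and Plxna1 (0.0163), all lower in Trpv1+, and for Plxnb2 (0.0734), higher there. None of these reached 10 CPM in both pools of either group, so none could be called. The median log2 fold change of Trpv1+ over Trpv1- was -0.75 over the guidance genes and 0.01 over all genes. Of 11 guidance genes at 10 CPM in both pools of a group, 6 had both Trpv1- pools above both Trpv1+ pools (background 22.5%) and 1, Nrp1, the reverse (background 25.3%). All 11 met that level in the Trpv1- pools. Among those higher there, Slit2, Ntng1, Robo2 and Sema5a did not meet it in the Trpv1+ pools, so the rule itself bears on this count. These Trpv1+ pools are the same as those compared with jugular neurons above, and held 30 cells against 15. Dbh, a sympathetic marker, was at 21.9 and 54.1 CPM in the Trpv1- pools and at most 0.0304 CPM in these Trpv1+ pools. Th went the other way, at 44.0 and 49.6 against 144 and 71.9 CPM. The fibroblast marker Col3a1 was at 14.9 and 18.9 against at most 0.172 CPM, and the glial marker Sox10 at 12.6 and 2.78 against at most 0.219 CPM. DESeq2 called Dbh and Col3a1 (background 2.63%) and edgeR neither. Their part in the guidance values was not tested.

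Among the 6, the ligands were Slit2, Sema5a and Efna5 and the receptors Robo2 and Unc5c, together with Ntng1. Slit2, a secreted ligand of Robo receptors, was at 46.8 and 21.9 CPM in the Trpv1- pools and 8.16 and 0.0121 CPM in the Trpv1+ nodose pools, and at most 2 counts in any jugular or capsaicin pool. Sema5a, a transmembrane semaphorin, was at 230 and 159 CPM against 99.2 and 4.83 CPM. Efna5 was at 40.9 and 49.3 CPM against 30.02 and 13.6 CPM. The pools did not overlap for any of these ligands, and the log2 fold changes of -3.07 (SE 2.73), -1.89 (SE 1.32) and -1.02 (SE 1.21) did not pass edgeR's test (adjusted p 0.769 to 0.909). Slit3 read 30.1 and 1.29 CPM in the Trpv1- pools and at most 5 counts in every other pool.

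Robo2, at 93.4 and 183 CPM in the Trpv1- pools against 9.63 and 16.02 CPM in the Trpv1+ nodose pools, had the smallest edgeR p among the guidance genes of this comparison (log2 -3.39, SE 0.81, adjusted p = 0.366 by edgeR and 0.119 by DESeq2). Ntng1, a membrane-anchored netrin-G protein of axons, was at 27.3 and 19.1 CPM against 4.95 and 2.67 CPM (log2 -2.59, SE 1.79, adjusted p = 0.767 by edgeR), and had no count in any capsaicin pool. Unc5c, given above, had a log2 fold change of -1.27 (SE 0.79, adjusted p = 0.723 by edgeR). Nrp1 was at 79.5 and 60.8 CPM in the Trpv1+ pools against 28.0 and 39.4 CPM in the Trpv1- pools (log2 1.09, SE 0.88, adjusted p = 0.817 by edgeR). Nrp1 in the Trpv1- nodose pools overlapped the Trpv1+ jugular pools.

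**Figure D4:**
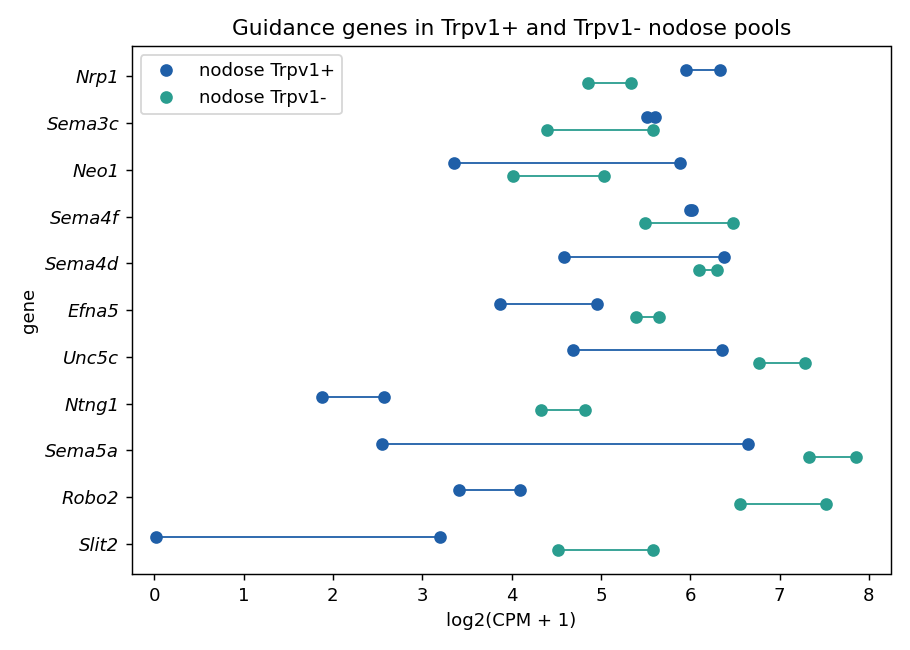
The 11 guidance genes at 10 CPM in both pools of the Trpv1+ or the Trpv1- nodose group, with log2(CPM + 1) of each pool (points, joined within a group). For Slit2, Robo2, Sema5a, Ntng1, Unc5c and Efna5 both Trpv1- points lie to the right of both Trpv1+ points, and for Nrp1 to the left.

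The ephrin Efna5 was higher in each capsaicin pool than in any pool of the Trpv1 selection, and no test bears on this since the selections differ in strain, core and depth. Efna5 was at 295 and 1364 CPM in capsaicin nodose pools and 140 and 382 CPM in capsaicin jugular pools, against 8.02 to 49.3 CPM in the 6 pools of the Trpv1 selection. Sema4b, a transmembrane semaphorin, was at 15.1 to 85.0 CPM in the 4 capsaicin pools and 0.305 to 14.5 CPM in the Trpv1 selection, but per plain total count the ranges overlapped, with 13.0 CPM in a capsaicin nodose pool and 19.1 CPM in a Trpv1- pool. Between ganglia, Efna5 did not pass the test in either selection (log2 0.74, SE 1.69, and log2 1.18, SE 0.92, with adjusted p of 0.961 and 0.868 by edgeR). Efnb2 was in 1 pool of a group each time, at 66.1 CPM in a Trpv1+ jugular pool and 35.3 CPM in a Trpv1- pool, with the partner pools at 0.00533 and 0 CPM.

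Other plexins and semaphorins appeared mostly in single pools. Plxna2, a receptor for class 6 semaphorins, was at 0.618 and 25.9 CPM in Trpv1+ nodose, 12.5 and 4.62 CPM in Trpv1+ jugular and 7.34 and 39.3 CPM in Trpv1- nodose pools, and under 10 CPM after capsaicin selection. Plxnb2, a receptor for class 4 semaphorins such as Sema4d, read 34.2 CPM in 1 Trpv1+ nodose pool and at most 6.18 CPM in the other 9 pools, and its relative Plxnb3 read 27.3 CPM in 1 capsaicin jugular pool and at most 6.11 CPM elsewhere. Plxna3 and Sema3b each exceeded 10 CPM in the second Trpv1- nodose pool alone, at 15.4 and 33.7 CPM. Sema6a, a transmembrane ligand of class A plexins, read 173 CPM in 1 capsaicin nodose pool and 0.0725 CPM in its partner, with 13.0 and 6.05 CPM in the Trpv1+ nodose pools against 2.31 and 1.39 CPM in the Trpv1+ jugular pools. Sema3e, the ligand of Plxnd1, exceeded 10 CPM in 1 Trpv1+ nodose pool alone (14.2 CPM), and Sema3d in 1 pool of each Trpv1-selection group, at 10.9, 19.0 and 14.3 CPM. None of these genes reached 10 CPM in both pools of a group, so none could be called.

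Genes that act with these receptors were followed through a list of 66 signalling proteins and co-receptors, of which 65 were counted. They were detected more widely, with 43 (66.2%) at 10 CPM in both pools of a group and 15 (23.1%) in all 5 groups. EdgeR called none of them in any comparison, among 54, 42 and 53 tested in the Trpv1, capsaicin and Trpv1+ against Trpv1- comparisons and 56 in both other fits, while 10, 5 and 6 and then 9 (both selections) and 7 (interaction) had an unadjusted p under 0.05, against 1305 of 10990, 1150 of 8181, 1264 of 11386, 1333 of 11959 and 1233 of 11959 genes in all. DESeq2 called 3 on the jugular side of the Trpv1 selection (background 2.28%), namely Srgap2, a Slit-Robo effector, Boc, a co-receptor of hedgehog ligands, and Lingo1, a co-receptor of myelin inhibitors. For capsaicin-selected neurons it called Mical1, an effector of plexins, Cntn2, an adhesion molecule of axons, and Rgmb, a ligand of neogenin, on the jugular side (background 6.43%) and Rock2, a kinase that acts on the actin cytoskeleton, on the nodose side (background 1.01%). Over both selections it called Mical1, Srgap2, Boc, Rgmb and Lingo1 on the jugular side (background 6.06%) and Rock2 and the adhesion molecule Nrcam on the nodose side (background 2.77%). For the interaction, with its background of 9.01%, it called Farp1, Srgap2, Cntn2 and Rgmb upward and Nrcam and Flrt3 downward. It called none between Trpv1+ and Trpv1- nodose neurons. Srgap2 was at 0.0128 and 0.0304 CPM in the Trpv1+ nodose pools versus 13.7 and 14.3 CPM in the Trpv1+ jugular pools. Lingo1 was at 0.0128 and 0.00607 CPM against 48.1 and 57.3 CPM. The pools of each did not overlap (background 24.8% on the jugular side). After capsaicin selection both genes were at 0 in the nodose pools. In the capsaicin jugular pools each rested on 1 pool, with Srgap2 at 0 and 10.4 CPM and Lingo1 at 0.340 and 33.15 CPM. Median log2 fold changes of the list were -0.13, -0.09 and -0.05 in the Trpv1, capsaicin and Trpv1+ against Trpv1- comparisons, close to the 0.03, -0.02 and 0.01 over all genes.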

How the data were processed

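The authors deposited raw read counts per gene symbol for each pool, made, per the submitters' processing notes, with CASAVA 1.8.2, TopHat2 2.0.9, Bowtie2 2.1.0.0 and HTSeq on mm10, after SMARTer amplification of picked cells. The counting annotation and strand setting are not given in the sources used here. Of the 72 genes, 9 share exon bases with another counted gene, among those named Nrp1 with Mir1903, Ntn3 with Tbc1d24, Unc5a with Hk3, and Epha10, Ephb4 and Ntn5. The counts were tested with edgeR 4.0.16 (TMM, filterByExpr, quasi-likelihood test, Benjamini-Hochberg) on all genes, in R 4.3.3. DESeq2 1.42.0, the tool of the study, was an alternative. CPM used DESeq2 size factors over the 10 pools. Each comparison of 2 pools with 2 was fitted on its own pools, and both selections with selection as a covariate. Thresholds were those of the study. Scripts were tested on simulated data. Positions come from GENCODE vM21 and the upstream sequence from RefSeq. Named genes were those called, up to 5 per direction without overlap, those separated in both selections, and the 10 highest per kb. The genes and lists were chosen with earlier results of these data known. No pool was left out.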

Additional observations from a re-analysis of the deposited data

Results flagged for a closer look

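Nrp1 lay in opposite directions in the selections, with both Trpv1+ nodose pools above both Trpv1+ jugular pools, and both capsaicin nodose pools below both capsaicin jugular pools. The test of that difference itself gave log2 11.64 for the Trpv1 selection minus the capsaicin selection (SE 2.51), with an adjusted p of 0.408 by edgeR's quasi-likelihood test and of 9.10e-11 by DESeq2. The value rests on 1 and 2 counts of Nrp1 in the capsaicin nodose pools. Only the capsaicin selection picked nodose and jugular cells by a calcium assay and their P2X response, and its pools held 14 to 16 cells against 30. The selections also differ in strain, sequencing core and depth, and all of these cannot be told apart. Groups of 2 pools are too small to look for a pool that stands apart within its group.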

How the results depend on the processing

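The number of guidance genes called in the Trpv1 selection (1) was 3 with DESeq2, 0 with the replicate number as a block, 0 after thinning and 0 without any single pool. In the capsaicin selection (0) it was 1 with no low-count filter, 4 with DESeq2, 2 in a fit of all 10 pools, 1 with the replicate block and 0 to 1 without single pools. Over both selections (1) it was 2 with no filter, 6 with DESeq2, 2 in the fit of all 10 pools and 1 to 2 without single pools, and for the interaction (0) it was 1 with DESeq2. It was 0 under each alternative between Trpv1+ and Trpv1- nodose neurons. The number separated in both selections (4) was 4 to 6 without single pools and 4 otherwise. Same-numbered pools did not deviate together (r = 0.00596, -0.0159 and -0.00885 over genes), which gave no sign that the numbers pair them. Pools of a group correlated at only 0.27 to 0.70, so this cannot exclude a pairing. With the block all-gene calls went from 35 to 13, 0 to 20, 6 to 1 and 69 to 41 in the 4 comparisons. With no filter they were 59, 122, 10 and 222, with DESeq2 506, 800, 372 and 1217, in the fit of all 10 pools 26, 111, 7 and 213, and without single pools 0, 0 to 29, 0 and 38 to 89. DESeq2 size factors in edgeR moved the median log2 value of all genes from -0.02 to 0.09 in the capsaicin selection, -0.18 to -0.04 over both and 0.44 to 0.09 for the interaction. Of 304 alternatives for 25 values of named genes, 280 kept direction and side of the threshold, 0 reversed, 18 newly passed and 6, all of Plxnc1 in the Trpv1 selection, no longer passed. The cause was not tested, except that fits of the Trpv1 selection with a single pool in a group called no gene. Without the first capsaicin jugular pool, Plxnc1 passed in the capsaicin selection (adjusted p = 0.00322), and without each of the others it did not (0.104, 0.122 and 0.925). Leaving out 1 pool moved some folds of genes that were not called by over 1.5 times. Without the first Trpv1+ nodose pool Slit2 went from log2 -3.07 to -11.35 and Sema5a from -1.89 to -5.28, and without the second to -2.05 and -0.94. Without the second Trpv1+ jugular pool Sema3c went from 4.37 to 11.02 and Robo2 from -2.29 to -0.81, and without the first capsaicin nodose pool Sema6d went from -3.36 to -9.22. Amplified pools of few cells and 2 pools per group limit what could be detected.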

Other observations

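Dpysl2, a mediator of semaphorin signals on microtubules also known as CRMP2, and Gsk3b, a kinase that acts on it, stood apart between the selections. They were chosen after their values were seen. Dpysl2 was at 13080 to 69840 CPM in the 4 capsaicin pools and 210 to 390 CPM in the 6 pools of the Trpv1 selection. Gsk3b was at 4404 to 30330 CPM in the capsaicin pools and 108 to 176 CPM in the Trpv1 selection. As a share of the total count, Dpysl2 held 1.13% to 3.13% of a capsaicin pool and 0.0239% to 0.0433% of a pool of the Trpv1 selection, and Gsk3b 0.475% to 1.36% and 0.0143% to 0.0218%. The ranges did not overlap on either scale. Selection, strain, sequencing core and depth cannot be told apart here.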
